A study of Mus musculus with 3 samples.

Results

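The regions described here are peaks of HIF1α pulldowns that were read as called in both pulldowns and lie between genes. They come from hearts of wild-type mouse embryos of the Black-Swiss strain at stage E12.5. There were 2 libraries from HIF1α pulldowns and 1 input library of the same chromatin without antibody. The deposited data are 1 merged list of 17289 peaks, in mm10 coordinates, and each peak carries a value that is a whole number. The names in the header do not line up with the columns, so reading this value, in the fifth column, as the peak score is an assumption behind every score below. A region was kept when its name ended in 2, its centre lay outside every annotated gene of any biotype, and no gene end lay within 1 kb. The ending was read as the number of calls merged into the peak, taken as 1 from each pulldown though the merging rule is not stated. The regions were thus chosen by their number of calls and their position, and not by their score. This gave 327 regions, which are 16.4% (exact 95% Clopper-Pearson interval 14.8 to 18.1%) of the 1989 peaks of 2 calls on nuclear chromosomes. The labels do not say whether the pulldowns came from separate pools of embryos, and they do not give the sex of the embryos. The merged list has no value for each pulldown, so replicate error could not be given and no test across peaks was made. Intervals cover counting error only, and peaks are not replicates. Both pulldowns were called against the same input, so the calls share that control.

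HIF1α is the subunit of the hypoxia-inducible factor that is destroyed when oxygen is plentiful. At low oxygen it pairs with ARNT, binds DNA at a short core sequence and raises transcription of genes for glucose uptake, glycolysis, oxygen sensing and blood vessel growth. Binding has been described at promoters and also at distant enhancers, which can act over long stretches of DNA on genes to either side. The embryonic heart grows before its own vessels are mature, and HIF1α is known to act in heart muscle at this time. A region between genes can be such an enhancer. It can also be an unannotated promoter, or repeated sequence where reads pile up without binding. The peak list carries no chromatin marks and no read counts, so these were not told apart.

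The bases under the 327 regions were not analysed here. As examples at letter level, the promoter stretch under a second peak was printed for 4 genes of the hypoxia and glycolysis lists. Each of these genes had a region between genes within 100 kb and also a peak of 2 calls over its own promoter. In these lists, 9 genes with a region within 100 kb had a peak of 2 calls within 1 kb of an end. Only those whose stretch fell wholly within the 250 upstream bases used were printed, whatever their letters. Each stretch is 81 bases, centred on the promoter peak, written 5′ to 3′ on the gene's strand from the RefSeq promoter table of GRCm38.p6, which is the same build as mm10. Capitals mark the HIF core, searched as ACGTG and GCGTG on both strands, and a match on one strand can overlap a match on the other.
Ddit4 promoter: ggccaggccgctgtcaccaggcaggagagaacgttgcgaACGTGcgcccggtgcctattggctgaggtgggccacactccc
Bhlhe41 promoter: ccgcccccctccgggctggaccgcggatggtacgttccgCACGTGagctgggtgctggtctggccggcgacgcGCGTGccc
Pgk1 promoter: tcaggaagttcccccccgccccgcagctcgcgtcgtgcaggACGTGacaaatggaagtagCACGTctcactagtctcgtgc
Egln1 promoter: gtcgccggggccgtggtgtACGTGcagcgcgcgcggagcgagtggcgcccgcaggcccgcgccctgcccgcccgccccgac
The stretches are chr10:59951916-59951996 for Ddit4, chr6:145865532-145865612 for Bhlhe41, chrX:106186909-106186989 for Pgk1 and chr8:124949261-124949341 for Egln1. The nearest core match was centred 1 bp from the peak centre at Ddit4, 1 bp at Bhlhe41, 3 bp at Pgk1 and 19 bp at Egln1. Of all 32851 promoter stretches at the same position, 13.4%, 14.2%, 14.2% and 18.7% held the core, in the same order of genes. A match is a description of the letters and not a measured binding site.

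Peaks between genes were mostly single calls. Of 7743 peaks between genes, 4.22% were of 2 calls, against 9.38% of 5589 peaks inside genes and 28.8% of 3956 peaks within 1 kb of a gene end. Among the peaks of 2 calls, 1138 lay at gene ends and 524 inside genes, beside the 327 between genes.

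The score of the 327 regions ran from 2 to 167, with a median of 4 and quartiles of 3 and 5. The score is the authors' value and its scale is not stated, so it was used only to describe and rank peaks within the list. Peaks of 2 calls at gene ends and inside genes also had a median of 4, with upper quartiles of 6. Low scores were frequent between genes. Of the 327, 155 scored 2 or 3 (47.4%, interval 41.9 to 53.0%), against 23.7% (21.3 to 26.3%) at gene ends and 29.6% (25.7 to 33.7%) inside genes. A score of exactly 2 was found in 17.4% between genes, 7.06% inside genes and 1.85% at gene ends. At the top of the scale the shares were small in every class, and that of the regions was again the lowest, with overlapping intervals. A score of 10 or more was found in 23 of the 327 (7.03%, interval 4.51 to 10.4%), against 10.4% (8.66 to 12.3%) at gene ends and 10.7% (8.17 to 13.7%) inside genes. Of the 10 highest scores among all nuclear peaks of 2 calls, 3 were between genes. The number of calls was used to choose the regions, so their distance in score from single calls is a description. Single calls between genes had a median of 2, and 97.8% of these 7416 peaks scored 2 or 3.

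**Figure D1:**
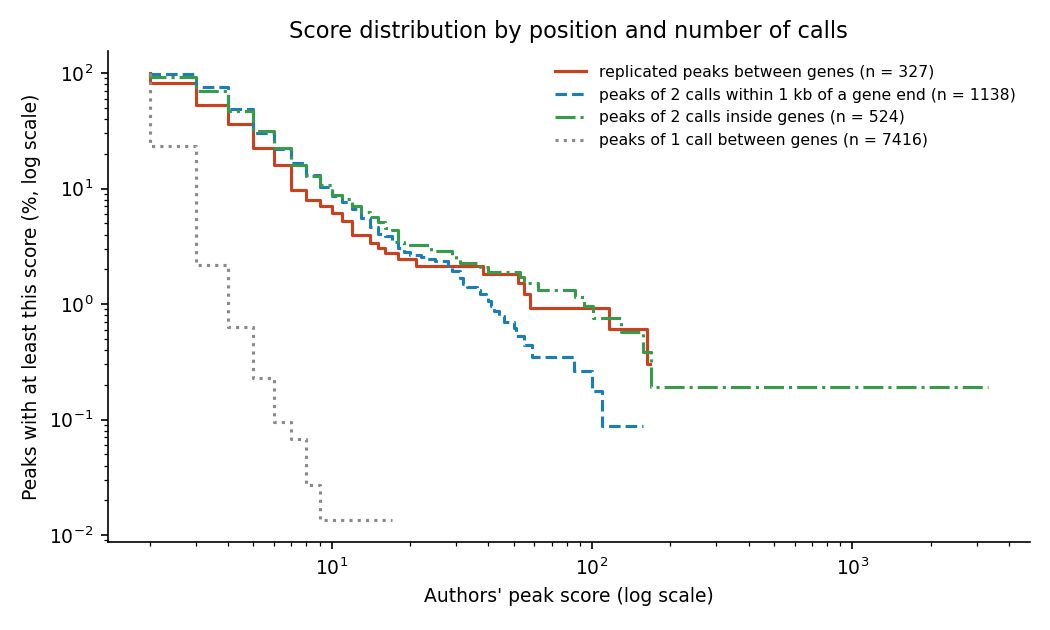
Share of peaks (percent, log scale) with at least the score on the x axis (authors' score, log scale) for replicated peaks between genes, for peaks of 2 calls at gene ends and inside genes, and for peaks of 1 call between genes. The line for the 327 regions starts to fall earlier, with 52.6% at a score of 4 or more, and ends at 167, while the line for single calls falls to 2.17% at a score of 4.

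Among the 17 regions that scored 12 or more (the top 15 with ties), 7 scored 38 or more and stood apart from the rest, which scored 21 or less. The highest score, 167, was at chr7:73618513-73618619, 9826 bp from the noncoding gene Gm30149 and 76.8 kb from Chd2, which encodes a chromatin remodeller. The next, 162, was at chr3:5860640-5860767 in a gap with no gene end within 109 kb and Pex2, a peroxisome assembly gene, 282 kb away. The third, 116, was at chr6:3201463-3201565, close to the start of the annotated part of chromosome 6 and 171 kb from Samd9l. A score of 58 was found at chr6:49236462-49236562 between Igf2bp3 (21.0 kb), an RNA-binding protein gene of fetal tissue, and Tra2a (7409 bp), a splicing factor gene. The region of score 55 (chr17:36231507-36231611) lay in the major histocompatibility region between pseudogenes, 24.1 kb from Rpp21 and 41.4 kb from H2-T3. The region of score 38 (chr8:15519883-15519983) lay 387 kb from Myom2 and 373 kb from Csmd1. None of these 6 had a gene of the hypoxia or glycolysis lists within 100 kb. The remaining one of the 7, with a score of 52, had the glucose transporter gene Slc2a1 within that distance and is described with it.

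The other 10 regions of this group scored 12 to 21. One of score 21 (chr4:120148798-120148909) lay between Hivep3 (10.8 kb) and Edn2 (12.4 kb), which encodes an endothelin. One of score 18 (chr12:80146611-80146717) lay 20.9 kb downstream of Actn1, which encodes a non-muscle alpha-actinin. A region of score 15 (chr14:65332106-65332222) lay 8.19 kb from Fbxo16 and 26.5 kb from Zfp395. A region of score 12 (chr8:75083985-75084114) lay 9.57 kb from Hmox1, the gene for haem oxygenase, and 13.9 kb from Tom1. Another of score 14 (chr13:80962965-80963078) lay 1053 bp from the noncoding gene 9330111N05Rik and 67.0 kb from Arrdc3. Regions of score 16 and 12 had Gm39469 and Pmp2 as nearest coding genes, at 11.1 kb and 39.5 kb. The other 3 are at Slc2a1, Ddit4 and Egln3.

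**Figure D2:**
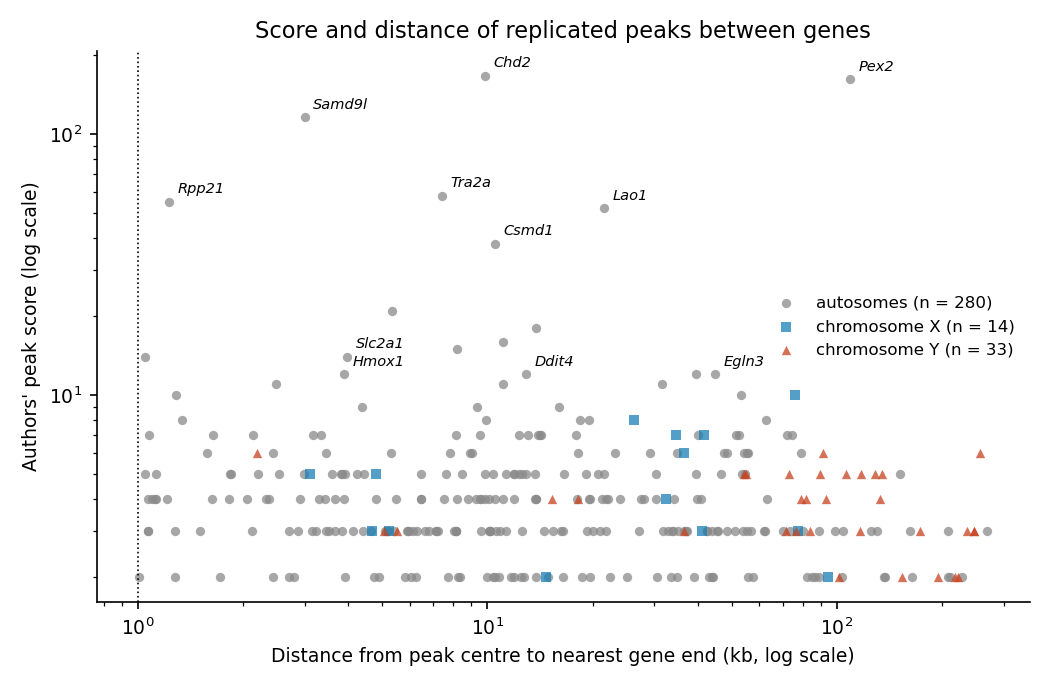
Authors' score (log scale) against distance (kb, log scale) between peak centre and closest gene end, whatever the biotype, for each of the 327 regions, with the nearest coding gene written beside 11 of the high scores and a dotted line at the 1 kb limit. The 3 scores above 100 lie at 3.00, 9.83 and 109 kb, and the 33 regions of chromosome Y (triangles) score 6 or less.

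Genes of oxygen sensing and glucose use were searched for within 100 kb of the regions. Of 39 listed genes of the hypoxia response and HIF feedback, 6 had a region within 100 kb (15.4%, interval 5.86 to 30.5%). Of 34 listed genes of glycolysis and glucose uptake, 5 did so (14.7%, interval 4.95 to 31.1%). Over all 21779 protein-coding genes the share was 3.08%. The lists were chosen with earlier results of these data known, so this contrast is a description. The 11 genes had 13 regions with scores of 3 to 52 and a median of 7. With a limit of 5 kb around gene ends in place of 1 kb, 5 genes had a region. Of the 11 genes, 9 also had a peak of 2 calls within 1 kb of an end of the gene itself. In the whole lists 51.3% of the hypoxia genes and 47.1% of the glycolysis genes had such a peak, and over all protein-coding genes 5.54% did.

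Among oxygen sensors, Egln3 had regions on both sides within 100 kb. Egln3 encodes a prolyl hydroxylase that tags HIF1α for destruction and is itself induced by HIF. One region scored 12 and lay 83.2 kb upstream (chr12:54287030-54287143), and the other scored 7 and lay 16.0 kb downstream (chr12:54162927-54163092). Both scored lower than the peak of 53 inside the gene. No peak of 2 calls lay within 1 kb of an Egln3 end. Egln1, which encodes the main HIF prolyl hydroxylase, had a region of score 4 lying 42.4 kb upstream (chr8:124991638-124991767) and nearer to Tsnax (21.3 kb). Its promoter peak scored 19.

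Ddit4 encodes REDD1, an inhibitor of mTORC1 that is induced by low oxygen. Its region scored 12 and lay 12.9 kb upstream (chr10:59964629-59964738), and its promoter peak, printed above, scored 19. Stc2, which encodes the secreted glycoprotein stanniocalcin, had a region of score 8 at 1344 bp upstream (chr11:31371333-31371478), and a lower score of 5 in the peak closer to the gene, at 471 bp. Bhlhe40 and Bhlhe41 encode repressors that link hypoxia to the circadian clock. Bhlhe40 had a region of score 7 at 1635 bp from the gene (chr6:108668509-108668612), with peaks of 10 and 5 at its other end. Bhlhe41 had a region of score 4 at 2371 bp downstream (chr6:145855806-145855938), with a promoter peak of 7.

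In the glucose pathway, Slc2a1, which encodes the transporter GLUT1, had the highest-scoring region of any listed gene. It scored 52 and lay 89.1 kb upstream, at chr4:119019550-119019653. Lao1 was closer to that region, at 50.7 kb. A region of score 14 lay 3982 bp downstream of Slc2a1 (chr4:119141250-119141375). The peak at the start of the gene scored 17, so the distant region scored above the proximal one here. Hk2, which encodes the hexokinase that traps glucose in the cell, had a region of score 9 at 47.5 kb upstream (chr6:82821856-82821978) and a promoter peak of 14. Pgk1 (phosphoglycerate kinase) had a region of score 3 at 15.5 kb upstream, nearer to the immune receptor gene Tlr13, and a promoter peak of 25. Pgm1, a phosphoglucomutase gene of glycogen use, had a region of score 3 at 15.4 kb upstream, nearer to Efcab7, and a peak of 20 just inside its start. Slc2a3, which encodes the transporter GLUT3, had a region of score 3 at 24.4 kb from the gene, nearer to Nanog, and no peak of 2 calls within 1 kb of an end.

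**Figure D3:**
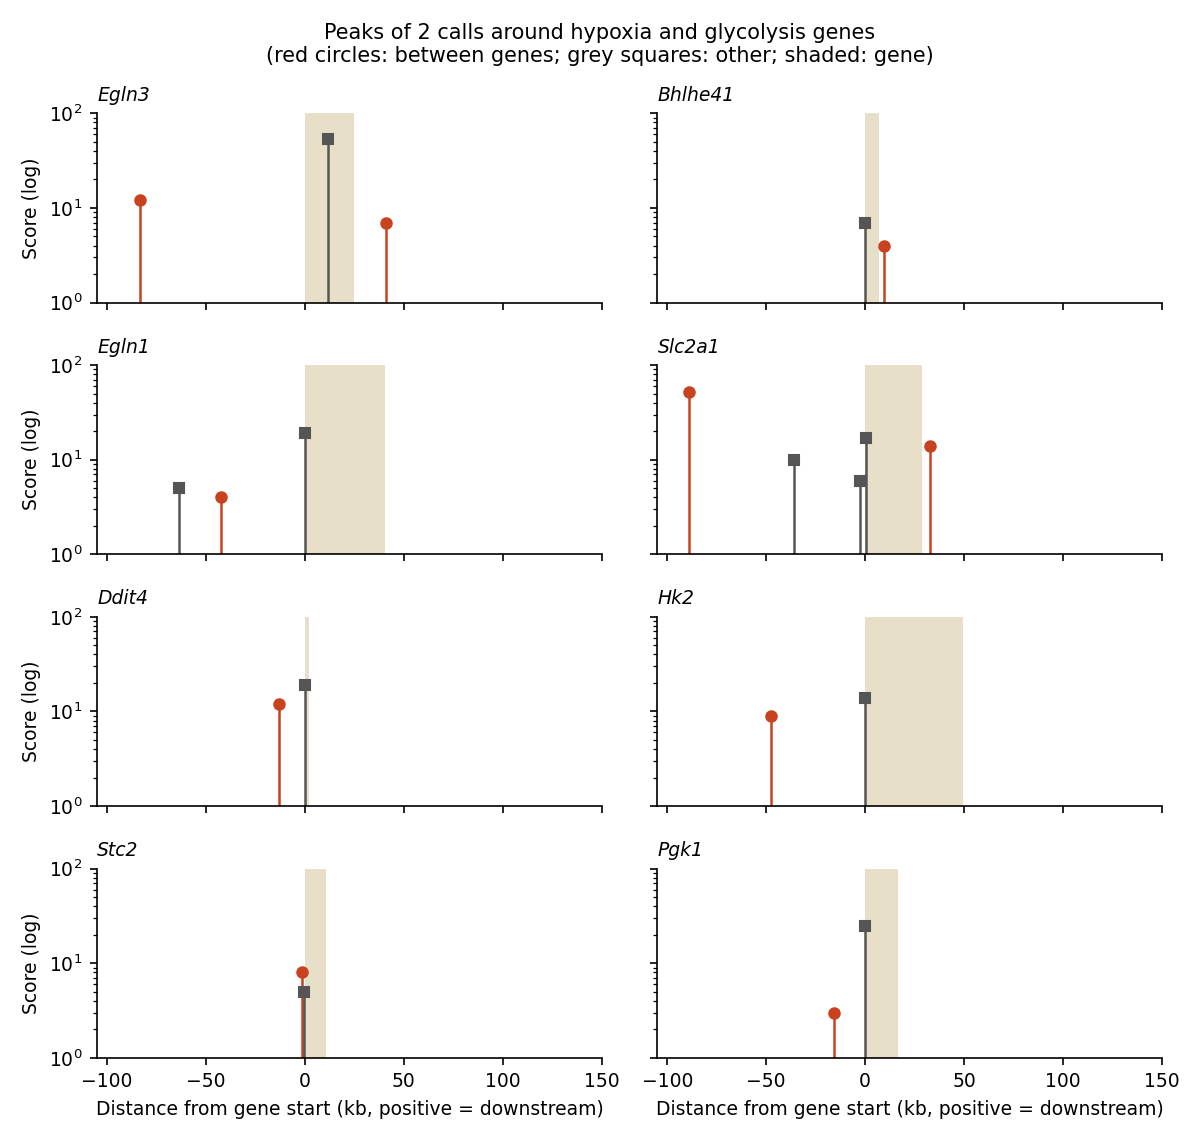
Peaks of 2 calls within 100 kb of 8 hypoxia and glycolysis genes, by distance from the gene start along the gene's strand (kb, x axis) and authors' score (log scale, y axis). Red circles are the regions between genes, grey squares are other peaks of 2 calls, and shading spans the gene; the region 89.1 kb upstream of Slc2a1 scores 52 against 17 at the gene start, and at Egln3 the peak of 53 is inside the gene.

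Genes of heart cells, vessels and growth factors were then searched for in the same way. Of 38 listed heart transcription factor genes, 5 had a region within 100 kb (13.2%, interval 4.41 to 28.1%). Over all 21779 protein-coding genes the share was 3.08%, as given above. Gata6, a zinc finger factor of early heart muscle, had a region of score 6 at 47.4 kb from the gene (chr18:11132997-11133124). A region of score 5 with Gata6 as nearest coding gene lay outside the window, at 267 kb (chr18:11353025-11353188). Tbx3, which directs the conduction system, and Tbx5, which directs chamber formation, shared a region of score 3 that lies between them, at 28.3 kb and 83.4 kb (chr5:119712980-119713151). Nkx2-5 had a region of score 3 at 25.2 kb downstream, nearer to Bnip1, and Gata5 had one of score 3 at 97.3 kb downstream, nearer to Lama5.

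Of 32 sarcomere and calcium handling genes, 3 had a region within 100 kb (9.38%, interval 1.98 to 25%). This interval takes in the 3.08% of all protein-coding genes. The natriuretic peptide genes Nppb and Nppa, which are switched on in embryonic heart muscle and lie side by side, shared a region of score 3 at 16.2 kb and 31.1 kb upstream (chr4:147969529-147969642). Kcnq1, a potassium channel gene, had a region of score 5 at 11.3 kb from the gene.

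Endothelial and endocardial genes gave 2 of 24 (8.33%, interval 1.03 to 27.0%), against 3.08% of all protein-coding genes, which lies within the interval. Npr3, which marks endocardium, had a region of score 3 at 6.29 kb upstream (chr15:11914066-11914181). Notch1, which acts in endocardium and vessels, had one of score 6 at 68.2 kb upstream, nearer to Egfl7 (9.03 kb), a gene expressed in vessel walls. Angiogenic and growth factor genes gave 2 of 30 (6.67%, interval 0.818 to 22.1%), and this interval also takes in 3.08%. Bmp7 had a region of score 5 at 79.7 kb, nearer to Rbm38, and Apln, the gene for the vessel peptide apelin, had one of score 2 at 39.8 kb downstream, nearer to Ocrl. For epicardial and cushion markers the count was 0 of 24, for which the exact interval reaches 14.2%. Counts were also 0 of 20 for each of the blood, neuronal and liver lists, with intervals that reach 16.8%. The 12 genes with a region in the heart, endothelial and growth factor lists had 10 regions with scores of 2 to 6 and a median of 3. A peak of 2 calls within 1 kb of an end was found at 0 of these 12 genes, nor at the other genes of these 4 lists. Over all protein-coding genes 5.54% had such a peak.

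Positions relative to genes were then described for the 327 regions as a whole. The distance to the nearest gene end had a median of 13.7 kb (exact interval of the median 11.1 to 17.9 kb) and reached 269 kb. Single calls between genes lay farther out, with a median of 31.3 kb. Without chromosome Y the median of the regions was 11.9 kb, and with protein-coding genes alone, which gives a larger set of 482 regions, it was 37.5 kb. Between 1 and 2 kb from a gene end lay 25 regions, between 2 and 5 kb 50, between 5 and 10 kb 54, between 10 and 50 kb 123, between 50 and 100 kb 44 and farther out 31. The median scores of these bands were 4, 4, 3, 4, 3.5 and 3, in the same order. The gap between the flanking genes had a median of 71.3 kb, and ran from 2.64 to 959 kb.

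The nearest gene was protein-coding for 140 regions (42.8%), a long noncoding RNA gene for 30.9% and a pseudogene for 20.5%. A protein-coding gene lay within 100 kb of 231 regions (70.6%) and within 10 kb of 70 (21.4%). Over all 327, the region lay upstream of its nearest coding gene in 118 cases and downstream in 137, and the strand was not held in the table used for the other 72. The balance changed with the window, with 15 upstream and 19 downstream within 5 kb, 32 and 26 within 10 kb, 72 and 73 within 50 kb, and 84 and 98 within 100 kb. Of the 231, the nearest coding gene had a peak of 2 calls within 1 kb of its own end in 14 cases (6.06%, interval 3.35 to 9.96%). This share is near the 5.54% of all protein-coding genes, and for single calls between genes it was 4.05% (3.39 to 4.80%) of 3136. The 14 genes were Slc2a1, Ddit4, Hk2, Stc2, Bhlhe40 and Bhlhe41 of the lists, and Map1lc3b, Tsnax, Zfp846, Rufy1, Bnip1, Irf2bpl, Bbs5 and Klhl31, which were on no list.

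The limit of 1 kb passed through a continuous run of distances. The 5 regions just outside it lay 1012 bp from the pseudogene Gm18003, 1053 bp from 9330111N05Rik, 1054 bp from Ptma, 1069 bp from Gm46898 and 1070 bp from Gm7762, and scored 2, 14, 5, 3 and 3. The 5 peaks of 2 calls just within it and outside a gene lay 862 to 951 bp from a gene end and scored 2 to 9. They were at Ccin, Gm2a, Gm36187, Ptpro and 1700001O22Rik. At the far end, the region most distant from any gene end, at 269 kb (chr12:47469464-47469627), scored 3 and had Nova1 650 kb away. Of the 10 most distant regions, 6 were on chromosome Y and the others were on chromosomes 1, 2 and 12, and their scores were 2 to 6.

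The width of a merged peak gave a measure that played no part in choosing the regions by position. All single calls have the same width, so the width of a merged peak beyond it is the offset between the 2 calls, from 0 bp where they coincide to 100 bp where they barely overlap. The offset of the 327 regions had a median of 20 bp and quartiles of 9 and 39 bp. At gene ends the median was 21 bp and inside genes 23 bp, with the same quartiles of 9 and 39 bp. Higher scores went with smaller offsets. Regions of score 2 or 3 had a median offset of 23 bp (n = 155), those of 4 or 5 had 21 bp (n = 99), those of 6 to 9 had 15 bp (n = 50) and those of 10 or more had 11 bp (n = 23). Peaks at gene ends ran from 30 bp to 10 bp over the same bands. Among regions of score 10 or more, the offset was 0 bp at the region between Igf2bp3 and Tra2a and at the one between Myom2 and Csmd1. At Ddit4 it was 9 bp, and at the distant region of Slc2a1 3 bp.

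Chromosome Y stood apart. Of its 34 peaks of 2 calls, 33 lay between genes (97.1%, interval 84.7 to 99.9%), against 14.6% (13.0 to 16.3%) of 1919 on autosomes, where single chromosomes ran from 5.48 to 26.2%. All 80 single calls on Y also lay between genes, against 48.2% on autosomes, so position on Y differed for both kinds of peak. On chromosome X, 14 of 36 lay between genes (38.9%, interval 23.1 to 56.5%). Between genes, 29.2% of the peaks on Y were of 2 calls, against 7.14% on X and 3.77% on autosomes. The 33 regions on Y scored 2 to 6 with a median of 4, and their nearest gene end had a median distance of 93.1 kb. Their offset had a median of 9 bp, against 21 bp for the regions on other chromosomes. Of the 33, 26 had another peak within 10 kb (78.8%, interval 61.1 to 91.0%), against 21.8% (17.2 to 26.9%) of the 294 on other chromosomes. Chromosome Y of the mouse is known for gene families copied many times over.

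**Figure D4:**
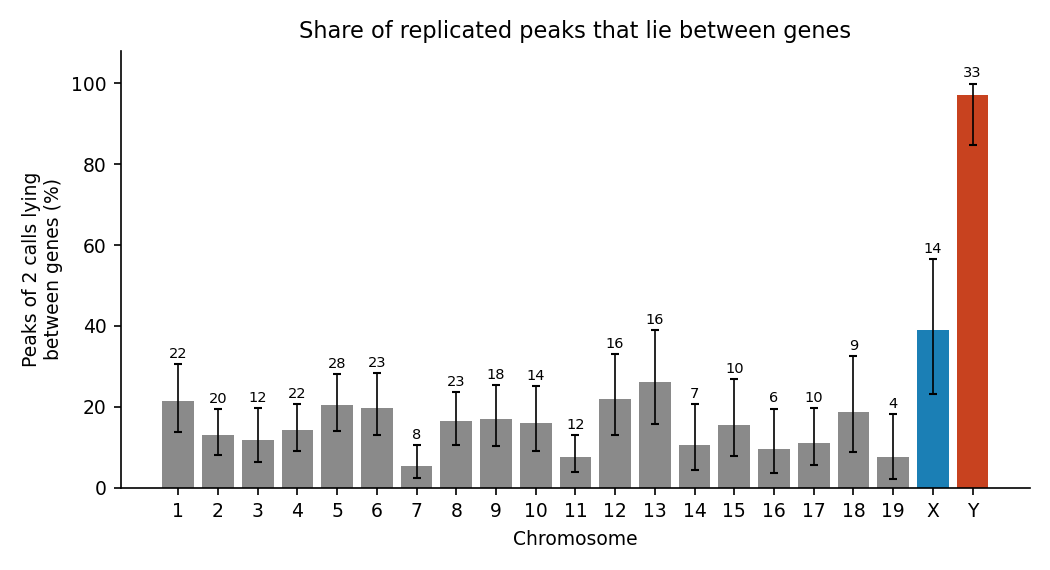
Share of the peaks of 2 calls on each chromosome that lie between genes (percent, with exact 95% Clopper-Pearson intervals; the number of regions is written above each bar). Chromosome Y reaches 97.1% with 33 regions and chromosome X 38.9% with 14, and autosomes run from 5.48 to 26.2%.

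Regions also gathered in clusters. When regions within 100 kb of each other were joined, 263 of the 327 stood alone, and 4 clusters held 3 or more. The largest had 18 regions over 349 kb on Y (chrY:6670776-7020162), between Gm20873 and Gm21244, with scores of 2 to 6 and 33 single calls among them. A cluster on X held 6 regions over 84.6 kb (chrX:126693268-126777896) between the pseudogene Gm7746 and 4932411N23Rik, with scores of 3 to 10. It included the region of score 10, the highest on X, and 4 of the 6 lay close together at the opposite end. A cluster on chromosome 5 held 5 regions over 217 kb (chr5:15461221-15678640), with scores of 3 to 5. It lies between Gm17019 and Speer4cos, with Speer4d among the 8 genes inside, and holds 21 single calls. A second cluster on Y held 3 regions over 16.1 kb (chrY:90724488-90740589), next to Gm52481 near the end of the annotated chromosome.

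**Figure D5:**
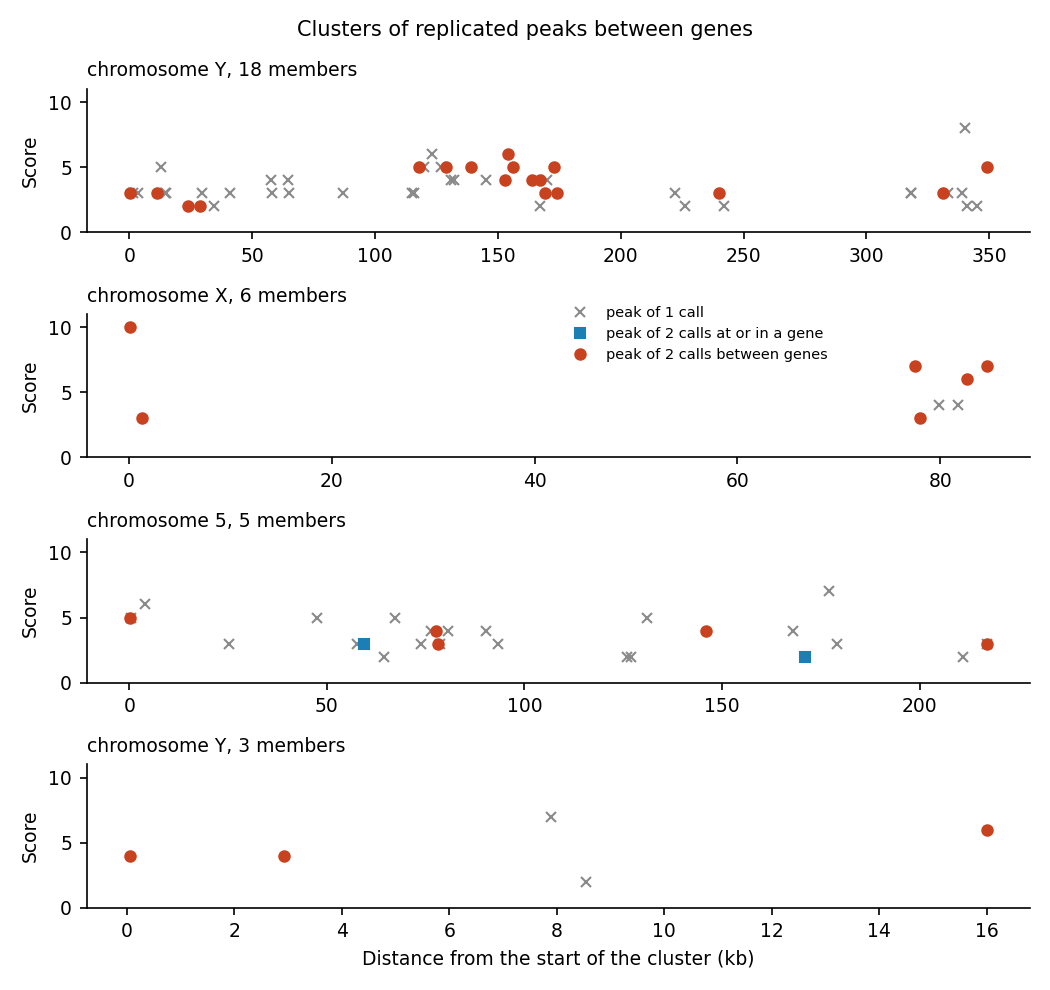
Authors' score (y axis) of each peak in the 4 clusters of 3 or more regions, by distance from the start of the cluster (kb, x axis). Red circles are the regions between genes, blue squares are peaks of 2 calls at or in a gene and crosses are single calls; scores of the red circles run from 2 to 6 on Y, 3 to 10 on X and 3 to 5 on chromosome 5.

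Marks that often go with repeated or poorly assembled sequence were counted for each region. Another peak of the list lay within 10 kb of 90 regions (27.5%, interval 22.8 to 32.7%), against 19.2% (16.9 to 21.6%) of peaks of 2 calls at gene ends, 18.9% (15.6 to 22.5%) inside genes and 15.9% (15.1 to 16.7%) of single calls between genes. Without chromosome Y the share of the regions was 21.8%, against 15.3% of single calls. This mark also takes in Stc2, Bhlhe40 and Bhlhe41, where the neighbour is the peak at the gene end. Both flanking genes were predicted models or clone names in 148 regions (45.3%, interval 39.8 to 50.8%), a lower share than the 54.8% (53.7 to 55.9%) of single calls between genes. A position within 1 Mb of the first or last annotated gene of the chromosome was found for 7 regions (2.14%, against 1.46% of single calls), among them the region of score 116 near Samd9l. Flanking genes whose symbols share the letters before the number were found at 5 regions (1.53%, against 3.55% of single calls). Examples are the olfactory receptor gene Olfr1245 and the prolactin family genes Prl6a1 and Prl8a2. This rule reads names only, so it also took in Mir181c and Mir23a, whose shared letters stand for microRNA. Lying on chromosome Y was itself counted as a mark (33 regions, 10.1%, against 1.08% of single calls). At least 1 mark was found on 187 regions (57.2%, interval 51.6 to 62.6%) and on 65.1% (64.0 to 66.2%) of single calls between genes. Without chromosome Y these shares were 52.4% (46.5 to 58.2%) and 64.7% (63.6 to 65.8%). The 140 regions without a mark had a median score of 4, as did the 118 with 1 mark, the 21 with 3 marks and the 3 with 4 marks. The 45 with 2 marks had a median of 3. All regions with 3 or 4 marks lay on chromosome Y, where position alone gives 1 mark, so the counting rule partly sets this. Of the 23 regions that scored 10 or more, 12 had a mark (52.2%), against 57.6% of the regions that scored under 10. The 12 included 6 of the 7 that scored 38 or more, most of them by the names of their flanking genes. The 11 without a mark included the region of score 52 upstream of Slc2a1, and those near Ddit4, Hmox1, Hivep3, Actn1, Fbxo16 and Pmp2. The upstream Egln3 region of score 12 had a mark, as did the Hk2 region of score 9. The part of repeated sequence in these peaks was not tested.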

How the data were processed

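Libraries of HIF1α pulldowns and input from E12.5 hearts were made from chromatin cross-linked with 1.5% formaldehyde for 10 minutes and sheared to about 200 bp, with 4 μg of antibody, per the labels' protocols. Bowtie2, HOMER and mm10 are named in the submitters' processing notes, with no versions. The deposited score is the authors' whole number of at least 2 per merged peak, and its scale, the calling threshold and the merging rule were not stated in the sources. The authors merged 2 call sets, 1 for each pulldown against the input, per the file headers. Read depth is unknown.

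Peak centres were placed against 49603 nuclear genes of the RefSeq table of GRCm38.p6, after leaving out 340 below 3 Mb on chromosomes other than Y. Strand came from the RefSeq promoter table, which held it for 17492 of 21779 protein-coding genes. A distance to a gene runs to its nearest end, and exon, intron and UTR were not resolved. All 280 distinct symbols of 10 gene lists matched. Members and lists were chosen with earlier results of these data known. Named genes flank the 15 highest scores with ties, the 10 most distant regions, the 5 just outside 1 kb, list genes within 100 kb and clusters of 3 or more. Python 3.11.15, pandas 2.3.3 and scipy 1.17.1 were used. Placement was tested on simulated data, and 600 of 600 centres were placed in their class among 2930 genes of chromosome 1. Alternatives covered the limit around gene ends, coding genes alone, whole peaks, score, overlap of calls, chromosome Y, joining and windows. A search of the HIF core under the regions was planned and not run, since no genome was used here.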

Additional observations from a re-analysis of the deposited data

How the results depend on the processing

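Of 67 values recomputed over 8 results, 53 stayed within the interval of the reported value (or within 1.5 times a count) and 14 moved; the values came from 1 merged list. With a limit of 5 kb around gene ends, 12.7% of peaks of 2 calls lay between genes, at a median of 22.0 kb, and 5 hypoxia and glycolysis genes had a region within 100 kb in place of 11, since regions closer than 5 kb to a gene leave the set. With coding genes alone the share was 24.2% and the median distance 37.5 kb. With scores of at least 4, 172 regions remained (12.2% of such peaks), with a median offset of 16.5 bp. Their median score was 5 and 13.4% scored 10 or more, and the cut itself raises both values. Another peak lay within 10 kb for 18.6%, but neighbours with scores below 4 were dropped too, which lowers this share. With calls overlapping by at least 51 bp the median offset was 16 bp, a fall that the cut on offset itself brings. Without chromosome Y, 21.8% had another peak within 10 kb. With a window of 50 kb, and chromosome Y kept, 69.4% had another peak. Limits of 500 bp, whole peaks and joined peaks moved no result. No paired analysis was possible because the merged list has no column for each pulldown, and leaving out a replicate was not possible for the same reason. With unknown depth, absence of a region near a gene does not show absence of binding.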

Other observations

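Some further regions near genes of stress, vessel and signalling pathways were picked out after their values were seen, so they carry no weight as a group. Keap1, which encodes the sensor that holds back the antioxidant factor NRF2, had a region of score 9 at 4375 bp downstream (chr9:21225302-21225409). Idh2, a mitochondrial isocitrate dehydrogenase gene, had one of score 9 at 16.0 kb (chr7:80134553-80134653), where the 2 calls coincided at an offset of 0 bp. Lama4, which encodes a laminin of vessel walls, had regions of score 7 at 3341 bp (chr10:38962120-38962229) and of score 8 at 57.1 kb (chr10:38908350-38908480), both on the same side of the gene. Hes1, a repressor that answers to Notch signals, had a region of score 7 at 1078 bp (chr16:30064229-30064330). Map1lc3b, which encodes the autophagosome protein LC3B, had one of score 4 at 4802 bp upstream (chr8:121585581-121585691). Cxcr4, the receptor for the chemokine CXCL12 and a listed hypoxia gene, had its region of score 10 at 240 kb upstream (chr1:128832690-128832815), outside the 100 kb window.

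A region of score 5 lay between the microRNA genes Mir181c and Mir23a, at 19723 bp and 9834 bp (chr8:84198620-84198748). On X, a region of score 5 lay 4.80 kb from Phf6 and 26.3 kb from Hprt (chrX:52961704-52961825).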
